A study of Drosophila melanogaster and Drosophila simulans and Drosophila yakuba with 72 samples.

Results

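Of 1339 experimental probes on a miRNA array hybridised with RNA from whole fruit flies, 48 have a target sequence that contains 4 or more G in a row or at least 2 separate runs of 3 G. The rule itself uses only the target sequence and no intensity, but it was chosen with earlier results of these data known. In 35 of them the longest run has at least 4 G, in 5 of these at least 5, and the remaining 13 have 2 or more runs of 3 G. They carry 46 distinct targets of 19 to 27 bases, because 3 custom probes (dsi-wu-mir-2349-3p, dsi-wu-mir-2548-3p and dsi-wu-mir-2329-5p) share 1 target. The median G content of the targets was 36.4%, against 22.7% in the other 1291 probes. By name, 15 of the 48 probes were designed on the silkworm Bombyx mori (prefix bmo), 10 on Drosophila melanogaster (dme), 9 on D. simulans (dsi), 9 on D. pseudoobscura (dps), 3 on the mosquito Aedes aegypti (aae), 1 on D. erecta (der) and 1 on the mosquito Culex quinquefasciatus (cqu), and 12 were custom additions to the standard content.

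The series asked how miRNA expression evolved at the onset of metamorphosis, and it covers 72 samples on 36 two-colour arrays in 18 groups of 4. The strains were Samarkand, Canton-S, Zimbabwe-109 and Oregon-R of D. melanogaster, the D. simulans stock 14021-0251.167 and the D. yakuba stock 14021-0261.00. All 6 strains contributed males, and 3 of them (Zimbabwe-109, Oregon-R and the D. simulans stock) also females. The 2 stages were puparium formation (PF), when the larva becomes a prepupa, and an earlier larval time labelled as at least 18 before it, taken here to be hours and called early. Each sample was total RNA of a pool of whole animals raised on medium with bromophenol blue, so every value is an average over tissues and over the animals of the pool. Each array held the early and the PF sample of 1 strain, sex and replicate in opposite dyes. Of 7 slides 5 held males, 2 held females and 0 held both, so sex and slide cannot be told apart.

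A miRNA hairpin is cut into a duplex of which one strand, the guide, is usually kept while the other, the passenger or star strand, is usually degraded. Several tested probes of the 48 address such a passenger or 5p arm (aae-miR-92a*, dps-miR-311*, dps-miR-375*, dps-miR-1000*, dme-mir-14-5p, dme-mir-275-5p and dme-mir-313-5p). An array probe is complementary to its target, so that a target with runs of G is captured by a probe with runs of C. Such runs pair strongly, and runs of G in an RNA can also stack into G-quadruplexes. The array reports what bound to the probe. Whether that was the named miRNA was not tested here.

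The targets below are those of tested probes whose hairpin has a gene in D. melanogaster at a place where sequence can be given, with the runs of G in capitals and the bases written 5′ to 3′ as RNA. They are shown because the position and number of the runs differ among them. Gene positions are those of the D. melanogaster hairpin in RefSeq (Release 6 plus ISO1 MT), matched by name, while the sequences are the array's own targets, from the species in the prefix. mir-92a lies at chr3R:25646506-25646600, mir-1000 at chr3R:25588859-25588958, mir-375 at chr2L:857542-857632, mir-964 at chr2L:5642102-5642201, mir-275 at chr2L:7425795-7425892 and mir-965 at chr2L:243035-243141.
aae-miR-92a*: cgguacggacaGGGGcaacauu
dps-miR-1000*: cugcuGGGucGGGGcauuaaca
dps-miR-375*: acuuGGGccaGGGGaauucaaacu
dme-miR-964: uuagaauaGGGGagcuuaacuu
dme-mir-275-5p: cgcgcuaaucagugaccGGGGcu
dme-mir-965-5p: GGGGuaaaacuguacguuauaug
dsi-miR-965: GGGGugaaacuguacguuauaug
The first 4 targets have their runs inside the sequence. In the last 3 the only run lies at the first base or ends within 2 bases of the last.

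Detection in a sample required that the median of a probe's 3 spots lay more than 3 SD above the median empty spot. Of the 48 probes 29 (60.4%) were detected in at least 1 sample, against 31.5% of the other probes. Detection in at least 3 of the 4 samples of some group, the condition for testing, was met by 20 (41.7%), against 252 (19.5%) of the other 1291. The 3 custom probes with 1 shared target were detected in all 72 samples. In contrast, 19 probes were detected in none of the 72.

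Detection of the G-run probes was concentrated at the early stage. A median of 16 of the 48 was detected per early sample (lowest 9, highest 25) and of 7.5 per PF sample (lowest 3, highest 14). On 35 of 36 arrays more of them were detected in the early sample than in the PF sample of the same array, and on the remaining array the numbers were equal. The other probes ran the opposite way on most arrays, with fewer detected early on 27 arrays and more on 8. Among the tested probes, dps-miR-2550*, bmo-miR-3223*, bmo-miR-3378, dps-miR-311* and dps-miR-375* were detected in 24, 23, 7, 19 and 14 of 36 early samples and in 0 of 36 PF samples. The mirtron product dme-mir-1004-5p was detected in 6 early samples, bmo-miR-2777* in 5 and aae-miR-2946 in 4, all of them early, and the 4 of aae-miR-2946 were all females. Sporadic detection was seen for dme-miR-959 (3 samples), aae-miR-1889 (2), dps-miR-981* (2), dme-miR-966 (1), dsi-miR-981* (1) and bmo-miR-3284 (1), none of which was tested.

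Across the series 87 to 278 probes were detected per sample, and median correlations between the replicates of a group ran from 0.894 to 0.992. Probes for let-7, miR-100 and miR-125, miRNAs known to rise at metamorphosis, changed by 1.32 to 5.39 on the log2 scale over the 5 species and sex combinations. The 8 probes for 2S rRNA changed by -0.43 to 1.16, with a median of 0.25. In the Zimbabwe-109 female PF group replicate 4 stood apart for several G-run probes, as given in the closing section.

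In D. melanogaster males the G-run probes fell at PF as a group. Of the 20 tested, 17 fell and 0 rose, with a median log2 change of -2.31, while over all 272 tested probes 57 fell (21%) and 126 rose (46.3%), with a median of 0.13. Among the 17, dps-miR-2550*, bmo-miR-3223*, bmo-miR-3378, dps-miR-311* and dps-miR-375* were detected in 0 of 36 PF samples. They met the condition for testing through early groups alone. So did dps-miR-1000* and dsi-wu-mir-2986-5p, detected in 1 and 2 of 36 PF samples. The falls of all these probes, here and below, follow in part from that filter. Changes are PF minus early in normalised log2 intensity ± SE, averaged over the 4 strains, and a probe was called changed at limma's Benjamini-Hochberg adjusted p under 0.05 over all tested probes. In bulk RNA, fewer cells of a type and less RNA per cell cannot be told apart. The split between falls and rises of all called probes depends on the scaling. Falls were 31.1% of them in the reported fit, 19.8% with median centring in place of loess, 44.1% with the G-run probes left out of the loess, 44.6% in the authors' processed table and 60.2% after plain subtraction of the empty-spot median. Under those 4 settings 16, 17, 16 and 16 of the 20 probes fell. Median centring, which moved the median of all probes to 0.35, was the one of the 4 under which any rose, 2 of 20.

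The 8 steepest falls of all 272 probes in D. melanogaster males belonged to G-run probes. The steepest was dme-mir-14-5p, the opposite arm of miR-14, a miRNA that restrains cell death and shapes steroid hormone signalling in the fly. In the 16 early male samples its normalised log2 intensity ran from 11.24 through a median of 14.62 to 15.91, and in the 16 PF samples from 6.50 through 7.86 to 11.81. It fell by 5.52 ± 0.26 on the log2 scale, or 45.96-fold, on 16 of 16 arrays (adjusted p = 9.75e-27). The lowest early sample lay below the highest PF sample, and on each array the early sample was the higher.

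The probe aae-miR-92a*, for the passenger arm of miR-92a in the mosquito, read 6.42, 13.34 and 14.91 (lowest, median, highest) in the early males and 5.82, 6.79 and 10.71 at PF. It fell by 5.09 ± 0.36 on the log2 scale, again on 16 of 16 arrays (adjusted p = 7.52e-19). The custom probe dme-wu-mir-2318-5p read 7.68, 12.92 and 16.01 early and 5.68, 7.17 and 9.51 at PF. Its log2 change was -5.05 ± 0.24, downwards on 16 of 16 arrays. Both probes varied widely among the early samples, and both had their PF median near background.

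The 3 probes with 1 shared target serve as repeats of one measurement. dsi-wu-mir-2548-3p read 14.14, 15.37 and 16.80 in early males and 7.82, 11.03 and 13.02 at PF, so that no PF sample reached the lowest early sample. Its log2 change was -4.80 ± 0.26, beside -4.82 ± 0.28 for dsi-wu-mir-2329-5p and -4.77 ± 0.28 for dsi-wu-mir-2349-3p. Over the 72 samples the highest and lowest of the 3 differed by a median of 0.175 and by at most 1.18, and their lowest pairwise correlation was 0.996, which shows how closely 9 spots of 1 sequence agreed on an array. Their deposited early intensities had medians of 46443, 46340 and 47347 and exceeded 40000 in 26, 28 and 28 of 36 samples. The brightest experimental spot of the series read 59687.2, so their early levels lay near the top of the range, and the part of signal compression in their falls was not tested. dme-mir-14-5p exceeded 40000 in 2 early samples.

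Another 5 probes fell by more than 2 on the log2 scale in D. melanogaster males. dme-mir-313-5p, an arm of a hairpin of the miR-310 family, lay between 9.46 and 14.23 early and between 6.18 and 10.38 at PF, a change of -4.64 ± 0.18 (adjusted p = 4.52e-31). dsi-wu-mir-2208-3p changed by -3.89 ± 0.21, dsi-wu-mir-2986-5p by -2.33 ± 0.29 and bmo-miR-2783 by -2.29 ± 0.13. dps-miR-1000*, the passenger arm of a miRNA that acts in neurons of the fly, changed by -2.41 ± 0.27. This last probe had the largest dye difference of the 20, 0.82 higher in Cy5 than in Cy3 on the log2 scale, and its change was -1.55 on the 8 arrays with the early sample in Cy3 and -3.27 on the 8 with it in Cy5. Both orientations entered the fit equally.

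The remaining falls were smaller and were measured close to background. bmo-miR-3223* was detected in 11 of 16 early samples and in 0 of 16 at PF, and was at least 2.29-fold lower at PF. dps-miR-2550* was at least 1.90-fold lower (10 and 0 samples) and dps-miR-311* at least 1.31-fold lower (7 and 0 samples). Here "at least" sets the early mean against, in each PF sample, either the dimmest detected probe or the probe itself, whichever was brighter. For dps-miR-375* and bmo-miR-3378, also with 0 PF samples above background, no bound above 1 was obtained. dme-miR-964, one of a clustered group of miRNAs that cycle with feeding and time of day in adult flies, changed by -0.67 ± 0.27, dps-miR-375* by -0.62 ± 0.22 and bmo-miR-3378 by -0.18 ± 0.08. The call of bmo-miR-3378 (adjusted p = 0.0419) was lost when any 1 of 10 of the 16 arrays was left out, its adjusted p then running up to 0.121. That of dme-miR-964 (adjusted p = 0.0231) was lost without Zimbabwe-109 male replicate 2 (0.0577).

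The test was not passed by 3 of the 20 probes in D. melanogaster males. All 3 were at or near background there, which limits the fall that could be measured. dsi-miR-965 was above background in 0 of 16 early and 0 of 16 PF samples and was tested only because of its D. simulans samples, so its value says nothing about a fall in D. melanogaster. dme-mir-965-5p was above background in 4 early and 8 PF samples, and dme-mir-275-5p in 6 and 11. dsi-miR-965 changed by 0.04 ± 0.04 (adjusted p = 0.323), dme-mir-965-5p by 0.06 ± 0.06 (0.440) and dme-mir-275-5p by 0.09 ± 0.07 (0.268). The other 17 lay between -5.52 and -0.18, with a median of -2.41. dme-mir-275-5p read 6.27, 6.77 and 7.29 in early males and 6.67, 6.85 and 7.21 at PF. dme-mir-965-5p read 5.96, 6.67 and 7.20 early and 6.37, 6.66 and 7.02 at PF. The stages overlapped almost fully for both. In D. simulans, where dsi-miR-965 was above background in all samples, it changed by 0.02 ± 0.07 in males and 0.17 ± 0.07 in females, and neither passed (adjusted p = 0.845 and 0.0692). The only run of G sits at an end of the target in these 3 probes. With levels this low, and with 2 of the 3 being forms of one arm, nothing is read from the position of the run.

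In female flies of Oregon-R and Zimbabwe-109, too, most of the probes fell. Of the 20 probes 17 fell and 0 rose, with a median change of -3.30, against 72 falls (26.5%) and 135 rises (49.6%) over all probes, with a median of 0.19. dme-mir-14-5p changed by -6.94 ± 0.37, from 9.99, 13.73 and 15.85 (lowest, median, highest of 8 early samples) to 5.82, 6.07 and 8.95 at PF. The probes with the shared target changed by -6.66 to -6.75, aae-miR-92a* by -6.41 ± 0.51 and dme-wu-mir-2318-5p by -6.42 ± 0.34. dps-miR-2550* was detected in 8 of 8 early and 0 of 8 PF samples and was at least 19.7-fold lower at PF. dsi-wu-mir-2208-3p was at least 19.7-fold lower as well, dsi-wu-mir-2986-5p 8.95-fold, dps-miR-1000* 7.11-fold, dme-miR-964 6.58-fold, bmo-miR-3223* 4.94-fold, bmo-miR-2783 4.15-fold, dps-miR-375* 3.99-fold, dps-miR-311* 3.06-fold and bmo-miR-3378 1.5-fold, all of these lower bounds against a group with 0 detected samples. dme-mir-965-5p and dme-mir-275-5p did not pass, at 0.16 and -0.17, and dsi-miR-965 was above background in 1 of 8 early and 0 of 8 PF samples.

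In D. simulans males 11 of the 20 probes fell and 0 rose (median -1.65), against 34 falls (12.5%) and 88 rises (32.4%) over all probes (median 0.15). aae-miR-92a* had the largest change, -6.54 ± 0.73, with early samples at 12.33, 12.69, 12.79 and 14.27 and PF samples at 5.50, 6.51, 6.64 and 7.27. dme-mir-14-5p changed by -6.04 ± 0.52, dme-wu-mir-2318-5p by -5.24 ± 0.48, dme-mir-313-5p by -4.55 ± 0.35 and the probes with the shared target by -4.16 to -4.18. The stages were fully separated in aae-miR-92a*. dsi-wu-mir-2208-3p (-3.15), bmo-miR-2783 (-2.15), dsi-wu-mir-2986-5p (-2.01) and dps-miR-1000* (-1.28) also fell, the last 2 by at least 2.96-fold and 1.74-fold with 0 of 4 PF samples above background. The last was lower at PF on 2 of 4 arrays, and its call was lost when any 1 of the 4 arrays was left out.

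Fewer falls were called in D. simulans females. Of the 20 probes 7 fell and 0 rose (median -0.47), against 38 falls (14%) and 66 rises (24.3%) over all probes (median 0.04). These were dme-mir-14-5p (-5.92 ± 0.52), the 3 probes with the shared target (-4.50 to -4.57), dme-mir-313-5p (-2.53 ± 0.35), dme-wu-mir-2318-5p (-2.35 ± 0.48) and also aae-miR-92a* (-3.29 ± 0.73). In the last 3 the PF samples were all below background, so that the falls are at least 4.01-fold, 3.64-fold and 6.88-fold. dsi-wu-mir-2208-3p missed the threshold (-0.98 ± 0.42, adjusted p = 0.0541).

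D. yakuba males had 11 falls and 0 rises (median -1.31), against 42 falls (15.4%) and 84 rises (30.9%) over all probes (median 0.08). aae-miR-92a* changed by -5.95 ± 0.73, from 12.51, 12.996, 13.34 and 14.59 in the early samples to 6.21, 6.37, 7.13 and 9.94 at PF. dme-mir-14-5p changed by -4.76, dme-wu-mir-2318-5p by -4.64, dme-mir-313-5p by -4.05 and the probes with the shared target by -2.76 to -2.82. dsi-wu-mir-2208-3p (-2.57), dsi-wu-mir-2986-5p (-2.32), dps-miR-1000* (-1.47) and bmo-miR-2783 (-1.15) completed the 11. With 0 of 4 PF samples above background, dsi-wu-mir-2986-5p was at least 4.22-fold and dps-miR-1000* at least 2.52-fold lower. The call of dps-miR-1000* was lost without replicate 1, 2 or 3.

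Split into the 9 sets of one strain and sex, all 9 had falls among the 20 probes and 0 rises. The count was 9 in Oregon-R males (13.6% of all tested probes fell there), 16 in Oregon-R females (25.4%), 12 in Canton-S males (15.4%), 12 in Samarkand males (14%), 17 in Zimbabwe-109 males (16.5%), 17 in Zimbabwe-109 females (22.4%), 11 in D. simulans males (12.5%), 7 in D. simulans females (14%) and 11 in D. yakuba males (15.4%). The 3 probes with the shared target fell in all 9 sets and on 36 of 36 arrays, and the same held for dme-mir-313-5p, for dme-wu-mir-2318-5p, for aae-miR-92a* and for the arm of miR-14. Both stages of a replicate lie on the same array, but the size of the change still differed between slides. Zimbabwe-109 females lay on 2 slides, 2 arrays each, and between them the change differed by more than 2 for 11 of the 20 probes. The largest gap was that of dme-miR-964, which went from 7.14 to 5.75 on the one slide (-1.39) and from 12.92 to 5.36 on the other (-7.55). dps-miR-375* changed by -0.73 and -5.50 on these slides and bmo-miR-3223* by -1.15 and -6.87, while aae-miR-92a* changed by -7.16 and -7.28. All 17 probes called in that set fell on both slides. In Zimbabwe-109 males, with 3 arrays on one slide and 1 on another, 3 probes differed by more than 2, the most by 4.41 for dps-miR-1000*, and all 17 called probes again fell on both. Slide and replicate cannot be told apart within a set. The steepest change of aae-miR-92a* was -7.22 in Zimbabwe-109 females and the shallowest -2.23 in Oregon-R males. dme-wu-mir-2318-5p ran from -7.74 in Zimbabwe-109 males to -2.01 in Oregon-R males. Both probes were above background in 0 of 4 Oregon-R male PF samples, which limits the fall measurable there.

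The falls were compared between targets with different numbers of runs of G. In D. melanogaster males the 6 tested probes with 3 runs all fell, with a median change of -4.79 and 69.1% G at the median, and 3 of these 6 share 1 target. The 5 with 2 runs all fell, with a median of -1.36. Of the 9 with a single run of 4 or 5 G, 6 fell, with a median of -0.67. The order of the medians did not hold probe by probe, since aae-miR-92a* (-5.09) and dme-mir-313-5p (-4.64) have a single run and bmo-miR-2783 (-2.29) has 3. Just outside the rule, of 32 tested probes with exactly 1 run of 3 G, 10 fell and 3 rose, with a median of -0.05. Of the 220 with no such run, 30 fell and 123 rose, with a median of 0.22. Across the 20 probes the percentage of G and the change had a Spearman rho of -0.70, and across the 252 others -0.23. Across the same 20 the mean early level and the change had a rho of -0.92, and for a dim probe the fall that can be measured is limited. These are correlations across probes of the same libraries, 3 of them with 1 target, and probes are not independent replicates.

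G content and the run rule overlap, and probes outside the rule with as much G also fell. Of 16 other tested probes with more than 40% G, 12 fell and 0 rose in D. melanogaster males, with a median of -0.65 and a lowest value of -3.05. Among the 20, the 10 with more than 40% G all fell (median -4.70), and of the 10 with at most 40% 7 fell (median -0.64). The source of the probe ran along with this. The 10 tested custom probes of the 20 had a median of -4.70 and the 10 standard ones -1.16, with G contents of 55.5% and 35.6%, while the 37 other tested custom probes had a median of 0.02. The part of G content, run length, early level and probe source in the changes was not tested.

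The opposite arm of the same hairpin was tested for 5 of the 20 probes, and in the 4 pairs whose partner was above background in some of the samples compared the G-run arm changed downwards relative to it. The within-array stage changes of both arms were compared over the 16 arrays of D. melanogaster males with an exact two-sided sign-flip permutation test, adjusted over the 5 pairs, for which the smallest possible raw p is 3.05e-05. aae-miR-92a* changed by -5.09 and the guide probe aae-miR-92a by 0.97, a difference of -6.05 (SD 2.43), lower on 16 of 16 arrays (adjusted p = 5.09e-05). The partner of dme-mir-14-5p, der-miR-14, was above background in 0 of 16 early and 0 of 16 PF samples of these males, so that no arm difference is read for this pair. dps-miR-1000* changed by -2.41 and dps-miR-1000 by 0.26, a difference of -2.67 (SD 2.43, 16 of 16 arrays), with dps-miR-1000 above background in 1 early and 8 PF samples. The smaller differences were -0.67 (SD 1.01) for dps-miR-375* against dme-miR-375, lower on 11 of 16 arrays (adjusted p = 0.0138), and -0.50 (SD 0.54) for dme-mir-275-5p against der-miR-275, lower on 15 of 16 (0.00118). The last difference turned to 0.07 when the G-run probes were left out of the loess, and in the authors' processed table it was -0.15 and did not pass (adjusted p = 0.273). In that pair dme-mir-275-5p changed by 0.09 and der-miR-275 by 0.60, so the G-run arm itself did not fall. dps-miR-1000* and dps-miR-375* were above background in 1 and 0 of 24 male PF samples and were tested through early groups alone.

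Targets of more than 1 species were compared for 4 arms. dme-mir-92a-5p, a custom probe for the D. melanogaster passenger arm of mir-92a, is not one of the 48, since its target has 1 run of 3 G. It was looked at after its values were seen. Its target is set here under that of the mosquito probe.
aae-miR-92a*: cgguacggacaGGGGcaacauu
dme-mir-92a-5p: aggacGGGaaggugucaacguu
The D. melanogaster form was detected in 14 of 72 samples and was not tested. Its group means lay between 6.10 and 6.49 in all 18 groups, with no group set apart by stage. The mosquito form, in contrast, was detected in 35 of 36 early and 16 of 36 PF samples and fell in all 9 sets. A similar contrast was seen for mir-313, where dme-mir-313-5p was detected in 53 of 72 samples and dsi-mir-313-5p, which differs at 4 positions and has a run of 4 G in place of 5, in 0 of 72, also in D. simulans. dps-miR-375* was detected in 14 samples and dsi-miR-375* in 0, and their targets differ by A11G and G18U, counted from 1 at the 5′ end with the dsi base first. The A11G change lengthens the second run from 3 to 4 G. No such contrast was seen between dsi-miR-981* and dps-miR-981*, which differ by G13A and were detected in 1 and 2 samples. bmo-miR-14*, a silkworm probe for the star arm of miR-14, was detected in 0 of 72. The part of the runs in these contrasts was not tested.

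For the miR-965 arm, detection of the D. simulans form followed the species of the sample. In histoblasts of the fly, miR-965 is known to take part in abdominal morphogenesis. The D. simulans target differs from that of D. melanogaster by A6G and the D. pseudoobscura target (dps-miR-965*) by A6C and A19C, counted from 1 at the 5′ end with the dme base first, and all 3 begin with the same run of G.
dme-mir-965-5p: GGGGuaaaacuguacguuauaug
dsi-miR-965: GGGGugaaacuguacguuauaug
dps-miR-965*: GGGGucaaacuguacguucuaug
dsi-miR-965 was detected in 16 of 16 D. simulans samples, in 1 of 48 D. melanogaster samples and in 0 of 8 D. yakuba samples. The D. simulans males read 6.99, 7.02, 7.28 and 7.74 early and 7.11, 7.18, 7.37 and 7.46 at PF, while the 16 early D. melanogaster males lay between 5.89 and 6.08 and the 16 at PF between 5.92 and 6.11. No D. melanogaster male reached the lowest D. simulans male. dps-miR-965* was detected in 0 of 72 samples. dme-mir-965-5p was detected in 31 samples, 6 of them from D. simulans and 0 from D. yakuba.

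Species differences were tested in males. At the early stage 1 of the 20 probes differed between D. simulans and the mean of the 4 D. melanogaster strains, against 8.46% of all tested probes, and at PF again 1, against 11%. Both were dsi-miR-965, higher in D. simulans by 1.29 ± 0.08 early (adjusted p = 3.12e-21) and by 1.27 ± 0.08 at PF (6.04e-21). With all D. melanogaster male samples below background, these are at least 1.33-fold and at least 1.59-fold. dsi-miR-965 met the condition for testing only through its D. simulans groups, so the p-values are no independent support for this difference. Within slides, where D. simulans shared a slide with Oregon-R or Canton-S, early dsi-miR-965 was higher in D. simulans by 1.54 and 0.98, each from 2 D. simulans and 4 D. melanogaster samples. With slide as a fixed block, against the strains on shared slides, the early difference was 1.26 ± 0.07. The early count was 2 without Samarkand male replicate 1, Samarkand male replicate 4 or Zimbabwe-109 male replicate 3, and 3 without D. simulans male replicate 4.

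D. yakuba males differed from D. melanogaster in 5 of the 20 probes at the early stage (29.4% of all probes) and in 6 at PF (40.8%). All 5 early differences were lower in D. yakuba, namely dme-mir-313-5p (-1.79 ± 0.36), dsi-wu-mir-2208-3p (-2.02 ± 0.43), bmo-miR-2783 (-1.52 ± 0.28), dme-wu-mir-2318-5p (-1.93 ± 0.50) and dme-mir-965-5p (-0.66 ± 0.13). The last was above background in 0 of 4 D. yakuba samples at either stage, so that it was at least 1.52-fold lower at PF, with an early bound of 1.005-fold. bmo-miR-2783 read 7.37, 7.45, 7.82 and 8.20 in D. yakuba and dsi-wu-mir-2208-3p 8.28, 8.71, 8.75 and 9.54, in both cases above the D. melanogaster minimum, which was set by Oregon-R. The D. yakuba samples of dme-mir-313-5p read 9.89, 10.19, 10.26 and 10.67 and lay inside the D. melanogaster range of 9.46 to 14.23. Beside Samarkand on the same slide the early difference was -1.64 for dsi-wu-mir-2208-3p, -2.59 for dme-wu-mir-2318-5p, -1.60 for dme-mir-313-5p, -1.07 for bmo-miR-2783 and -0.77 for dme-mir-965-5p (4 against 2 samples). With slide as a random block the difference of dme-mir-313-5p was -0.95 and did not pass (adjusted p = 0.156), and the other 4 passed. At PF the 3 probes with the shared target were higher in D. yakuba by 1.39 to 1.47, and dme-wu-mir-2318-5p (-1.52), the probe dme-mir-313-5p (-1.21) and dme-mir-965-5p (-0.61) were lower. Detection of dme-mir-313-5p did not follow its level there. It was above background in 4 of 4 D. yakuba males (mean 6.20), 0 of 4 Oregon-R (6.67) and 2 of 4 Canton-S males (6.78). In Samarkand 4 of 4 and in Zimbabwe-109 3 of 4 were above it. The PF count of 6 fell to 1 with slide as a random block and to 2 with it as a fixed block, dme-mir-965-5p passing in both. The fixed block set D. yakuba against Samarkand and Zimbabwe-109 only, so slide and reference strains changed together. dsi-wu-mir-2548-3p read 11.97, 11.97, 12.04 and 12.15 in D. yakuba at PF, below all Samarkand males (12.20 to 13.02) and above those of the other 3 strains (7.82 to 11.74). Beside Samarkand on the shared slide it was lower in D. yakuba at PF by a log2 difference of -0.58. The PF count was 3 without Oregon-R male replicate 3, without Zimbabwe-109 male replicate 2 or without any 1 of the 4 D. yakuba replicates.

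Levels of the falling probes differed widely among the 4 D. melanogaster strains. In early males an F test over the strains called 11 of the 20 probes (37.5% of all tested probes), and the strain means of these 11 spanned 2.25 to 7.16 on the log2 scale. Oregon-R was the lowest strain for all 11 and Zimbabwe-109 the highest for 10. dme-wu-mir-2318-5p read 7.68, 8.30, 8.35 and 8.51 in Oregon-R, 12.72, 13.02, 13.20 and 13.86 in Canton-S, 12.01, 12.63, 12.82 and 13.24 in Samarkand and 14.52, 14.95, 15.97 and 16.01 in Zimbabwe-109 (adjusted p = 2.17e-13). No Oregon-R sample reached the other strains and no other sample reached Zimbabwe-109, while Canton-S and Samarkand overlapped.

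dsi-wu-mir-2208-3p gave the same order at the ends, with strain means of 7.53 in Oregon-R and 14.59 in Zimbabwe-109 (adjusted p = 8.22e-15). For aae-miR-92a* Oregon-R was again lowest, at 6.42, 8.72, 9.36 and 10.45, while Canton-S, the highest at a mean of 14.22, lay above Zimbabwe-109 (11.26 to 13.77) and overlapped with Samarkand (11.16 to 14.33). dps-miR-1000* read 6.10, 6.42, 6.45 and 7.02 in Oregon-R and 8.49, 11.25, 12.80 and 14.61 in Zimbabwe-109; the spread among the Zimbabwe-109 replicates was the widest of the 4 strains. The other early calls were bmo-miR-2783 (span of strain means 4.29), dsi-wu-mir-2986-5p (4.50), bmo-miR-3223* (4.16), dme-mir-313-5p (3.88), dme-mir-14-5p (3.43), dps-miR-2550* (3.20) and dps-miR-311* (2.25).

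The remaining early calls overlapped more between neighbouring strains. bmo-miR-2783 read 6.84, 7.10, 7.41 and 8.04 in Oregon-R, 8.62, 8.88, 8.90 and 9.21 in Canton-S, 8.49, 8.99, 9.08 and 9.59 in Samarkand and 11.40, 11.52, 11.60 and 12.03 in Zimbabwe-109, with Oregon-R and Zimbabwe-109 apart from the rest. dme-mir-313-5p read 9.46, 9.72, 9.97 and 11.28 in Oregon-R and 13.74, 13.97, 14.01 and 14.23 in Zimbabwe-109, with Canton-S (10.80 to 11.72) and Samarkand (11.85 to 13.86) touching one or the other. dme-mir-14-5p read 11.32, 11.51, 11.54 and 12.97 in Oregon-R and 14.79 to 15.91 in Zimbabwe-109, and 1 Samarkand sample (11.24) lay with Oregon-R. Oregon-R samples of dsi-wu-mir-2986-5p (5.87 to 6.70), dps-miR-2550* (6.05 to 6.47) and dps-miR-311* (5.87 to 6.12) all lay below the other 3 strains, whose highest samples, at 12.54, 11.73 and 9.24, were from Zimbabwe-109. For bmo-miR-3223* Oregon-R (5.94 to 6.21) overlapped with Canton-S (6.06 to 7.41).

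Strains and slides overlap only in part. All 11 early strain calls passed with slide as a random block. On the slide that held Zimbabwe-109 and Samarkand males (3 and 2 arrays), Zimbabwe-109 was higher by 3.26 for dsi-wu-mir-2208-3p, 2.83 for dme-wu-mir-2318-5p, 3.33 for dps-miR-1000*, 2.42 for bmo-miR-2783, 2.22 for dme-mir-14-5p, 0.59 for aae-miR-92a* and 0.30 for dme-mir-313-5p, and the other 4 of the 11 by 0.40 (bmo-miR-3223*) to 2.39 (dps-miR-2550*). Oregon-R shared a slide with D. simulans males, and there it was lower by log2 differences of -4.004 for aae-miR-92a*, -3.40 for dme-wu-mir-2318-5p, -2.22 for dme-mir-14-5p, -2.04 for dsi-wu-mir-2208-3p and -0.85 for dme-mir-313-5p (4 against 2 samples), the other 6 differing by -1.87 (dsi-wu-mir-2986-5p) to -0.43 (dps-miR-311*). In females Zimbabwe-109 was higher than Oregon-R on their shared slide by 2.60 for dme-wu-mir-2318-5p, 1.86 for dme-mir-14-5p, 1.21 for dsi-wu-mir-2208-3p and 1.07 for aae-miR-92a* (2 against 4 samples). For the other 7 of the 11 the difference between the female strains ran from -0.04 for dps-miR-311* to 0.47 for dme-mir-313-5p.

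At PF 8 of the 20 probes differed among the strains (36.8% of all probes), namely the 3 probes with the shared target, dme-mir-14-5p, bmo-miR-2783, dme-wu-mir-2318-5p, then dsi-wu-mir-2208-3p and dme-mir-313-5p. Oregon-R was lowest for all 8 and Samarkand highest for 7. For dsi-wu-mir-2548-3p the means were 8.35 in Oregon-R and 12.62 in Samarkand (adjusted p = 2.99e-05). The count was 4 with slide as a random block, where the 3 probes with the shared target and dme-mir-313-5p remained.

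The measured fall also differed among the strains. The interaction of stage with strain called 14 of the 20 probes (22.4% of all probes), and for 11 of these the steepest fall was in Zimbabwe-109 and for 10 the shallowest in Oregon-R, the other 4 being shallowest in Samarkand. The 14 changes differed between strains by 2.11 (dps-miR-311*) to 5.73 (dme-wu-mir-2318-5p) on the log2 scale. Those of dps-miR-1000* were -0.52 in Oregon-R, -1.68 in Samarkand, -2.02 in Canton-S and -5.42 in Zimbabwe-109 (adjusted p = 3.80e-06). Leaving out any 1 array gave 13 or 14 calls. In early Oregon-R males dsi-wu-mir-2986-5p and dps-miR-311* were above background in 0 of 4 samples. There dps-miR-2550* and bmo-miR-3223* were above it in 1 of 4 and dps-miR-1000* in 2 of 4. This limits the fall that could be measured in that strain for these probes. At PF aae-miR-92a*, bmo-miR-2783, dsi-wu-mir-2208-3p, dme-wu-mir-2318-5p and dme-mir-313-5p were above background in 0 of 4 Oregon-R males. Their measured falls there are limited by background too. dme-wu-mir-2318-5p, with the widest difference, went from 8.21 to 6.20 in Oregon-R, from its lowest early strain mean.

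Sex differences lay between slides of one sex each. In D. melanogaster (Oregon-R and Zimbabwe-109) 5 of the 20 probes differed at the early stage (37.1% of all probes). dsi-wu-mir-2208-3p (1.03 ± 0.39), bmo-miR-2783 (1.70 ± 0.25) and dme-mir-313-5p (1.60 ± 0.33) were higher in males, and dps-miR-2550* (-2.15 ± 0.50) and dps-miR-375* (-1.13 ± 0.40) were higher in females. The strains differed in which samples were apart. Male minus female, dsi-wu-mir-2208-3p was -1.32 ± 0.54 in Oregon-R, which did not pass (adjusted p = 0.0576), and 3.38 ± 0.54 in Zimbabwe-109, so that the strains had opposite signs. dme-mir-313-5p was 0.12 ± 0.46 in Oregon-R, which did not pass either (0.854), and 3.09 ± 0.46 in Zimbabwe-109. bmo-miR-2783 read 11.40 to 12.03 in Zimbabwe-109 males and 7.49 to 9.59 in the females, but 6.84 to 8.04 and 6.76 to 8.04 in Oregon-R males and females. dps-miR-2550* read 6.05 to 6.47 in Oregon-R males and 7.09 to 10.66 in the females, while in Zimbabwe-109 males (7.69 to 11.73) and females (8.00 to 14.21) overlapped. dps-miR-375* read 5.84 to 6.06 in Oregon-R males and 6.10 to 8.06 in the females. With slide as a random block 3 remained, bmo-miR-2783 (1.62), dme-mir-313-5p (1.35) and dps-miR-2550* (-2.64). Within strains, male minus female, dme-wu-mir-2318-5p was -2.12 ± 0.63 in Oregon-R and 1.94 ± 0.63 in Zimbabwe-109, and aae-miR-92a* was -2.60 ± 0.95 in Oregon-R and -0.48 ± 0.95, which did not pass, in Zimbabwe-109.

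At PF 6 of the 20 probes differed by sex in D. melanogaster (54.4% of all probes), all higher in males. These were dme-mir-313-5p (1.68 ± 0.33), dsi-wu-mir-2208-3p (1.49 ± 0.39), dme-wu-mir-2318-5p (1.45 ± 0.45), bmo-miR-2783 (1.42 ± 0.25), dme-miR-964 (1.39 ± 0.49) and dme-mir-275-5p (0.32 ± 0.14). dme-mir-313-5p read 6.18 to 7.94 over the 8 males and 4.83 to 5.76 over the 8 females, without overlap. These values lay near background, and detection did not follow them. In Oregon-R 0 of 4 males and 2 of 4 females were above background, and in Zimbabwe-109 3 of 4 males and 0 of 4 females. For dsi-wu-mir-2208-3p, bmo-miR-2783 and dme-miR-964 0 of 8 female PF samples were above background. The mean differences are thus at least 2.22-fold, 2.19-fold and 2.19-fold. For the first 2, Oregon-R males were above background in 0 of 4 PF samples as well, so these bounds do not hold for Oregon-R. Within Oregon-R dsi-wu-mir-2208-3p (adjusted p = 0.173), bmo-miR-2783 (0.0753) and dme-wu-mir-2318-5p (0.191) did not pass, and within Zimbabwe-109 they passed. dme-miR-964 and dme-mir-275-5p passed in neither strain and dme-mir-313-5p in both. With slide as a random block 2 of the 6 remained, bmo-miR-2783 (1.33) and dme-mir-313-5p (1.42).

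In D. simulans 6 of the 20 probes were higher in males at the early stage (16.2% of all probes), and 0 were higher in females. aae-miR-92a* read 7.98, 8.92, 9.98 and 10.63 in females and 12.33 or more in all 4 males, a difference of 3.64 ± 0.95 (adjusted p = 0.00418). dme-wu-mir-2318-5p read 7.36, 7.79, 8.51 and 10.18 in females and 10.77, 11.16, 12.07 and 13.19 in males, a difference of 3.34 ± 0.63. dme-mir-313-5p (2.62 ± 0.46), dsi-wu-mir-2208-3p (2.46 ± 0.54), dme-mir-14-5p (1.98 ± 0.68) and bmo-miR-2783 (1.79 ± 0.35) differed too. dme-mir-14-5p read 11.90, 12.42, 12.45 and 13.52 in females and 13.77, 14.34, 14.98 and 15.12 in males. dsi-wu-mir-2208-3p read 6.82 to 7.93 in females and 8.42 to 10.99 in males. The sexes were fully separated for all 6 probes. dme-mir-14-5p did not pass with slide as a random block (2.26 ± 1.02, adjusted p = 0.169), and the other 5 passed. At PF the one call was dsi-miR-965 (15.4% of all probes were called), higher in females by a log2 difference of -0.34 ± 0.10 (male minus female, adjusted p = 0.00840). It was lost with slide as a random block (adjusted p = 0.221) and without D. simulans female replicate 1, where the count was 0, and the count was 2 without D. simulans male replicate 1 or 2.

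The stage change was compared between the sexes in 2 species, again between slides of one sex each. In D. melanogaster the interaction called 6 of the 20 probes (23.2% of all probes), all with the deeper mean fall in females, by 2.99 for dps-miR-2550*, 2.12 for dme-miR-964, 2.01 for aae-miR-92a*, 1.54 for dme-wu-mir-2318-5p, 1.53 for dps-miR-375* and 0.52 for bmo-miR-3378. The strains did not share this evenly. dme-wu-mir-2318-5p fell by 2.01 in Oregon-R males and 5.17 in Oregon-R females, but by 7.74 and 7.66 in Zimbabwe-109 males and females. For aae-miR-92a* the sexes differed by 3.36 in Oregon-R and 0.65 in Zimbabwe-109. Both probes were above background in 0 of 4 Oregon-R male PF samples. The other 4 had the deeper fall in females in both strains. In all 4 the fall in Zimbabwe-109 females was unequal between slides, as given above for dme-miR-964 and dps-miR-375*. dps-miR-2550* went from 8.90 to 5.46 on the one slide and from 13.49 to 5.50 on the other. bmo-miR-3378 went from 6.17 to 5.92 and from 7.06 to 5.28. In early Oregon-R males dps-miR-2550* was above background in 1 of 4 samples and dps-miR-375* and bmo-miR-3378 in 0, which limits the fall measurable there. Oregon-R PF means of dps-miR-375*, all below background, were 5.44 in females and 5.84 in males. In D. simulans the interaction called 5 (5.88% of all probes), all with the deeper fall in males, by log2 differences of -3.24 for aae-miR-92a*, -2.89 for dme-wu-mir-2318-5p, -2.17 for dsi-wu-mir-2208-3p, -2.03 for dme-mir-313-5p and -1.64 for bmo-miR-2783. This last probe was above background in 1 of 4 early D. simulans females. At PF all 5 probes were above background in 0 of 4 D. simulans females, which limits the female falls that could be measured. All 5 were also higher in males early, aae-miR-92a* with means of 13.02 in males and 9.38 in females. The part of these limits in the deeper fall of males was not tested. aae-miR-92a* did not pass in either species with slide as a random block (adjusted p = 0.127 in D. melanogaster and 0.207 in D. simulans), and the other 5 and 4 probes passed. The D. melanogaster count was 3 without Oregon-R female replicate 2, and the D. simulans count was 2 without D. simulans male replicate 4 and 3 without D. simulans female replicate 4. The difference between the species in this interaction was not tested.

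Between species, the fall in males did not differ detectably for D. simulans. By limma 0 of the 20 probes were called (1.47% of all probes) and 0 had an unadjusted p under 0.05. For D. yakuba 5 were called (19.9% of all probes), all with a shallower fall than in D. melanogaster, by 2.04, 2.01 and 1.98 for the probes with the shared target, 1.32 for dsi-wu-mir-2208-3p and 1.14 for bmo-miR-2783. With slide as a random block 1 of the 5 remained, bmo-miR-2783, and the count was 2, 2 and 1 without D. yakuba male replicate 1, 2 or 4.

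Finally, the probes that fell varied together among replicates. Within groups, the deviations from the group mean of 15 falling probes (1 kept of those with the shared target) had a median pairwise correlation of 0.59 over the 36 early samples and 0.38 over the 36 PF samples, against 0.09 and 0.08 for the other 252 tested probes. Each pair shares its libraries, so this is a description. Their spread was also wider at the early stage. The median within-group SD of the 20 probes was 0.83 early and 0.39 at PF, beside 0.35 and 0.30 for the others.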

How the data were processed

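Spot intensities are those the authors deposited, a median pixel density per spot on a linear scale per the file headers. Per the labels' protocols, a company, LC Sciences, labelled the RNA. With no local background listed, the 689 empty spots per array served as background (medians 29.8 to 136), corrected by normexp with offset 50, which compresses dim signals. Loess within arrays, Aquantile between arrays and the median of 3 spots in log2 followed. The authors' processed intensity table (4333 spots, column medians 0.00375 to 5.04) served as an alternative, on log2(value + 50). Its scale and centring are unknown.

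Tests covered the 272 of 1339 probes that were detected in 3 or 4 samples of any one group. They were fitted over the 18 groups in R 4.3.3 (limma 3.58.1, statmod 1.5.0) with array as random block and a dye covariate, and the false discovery rate was 0.05 in each contrast. The file headers show that an array pairs the stages of a replicate. Deviations of the paired samples correlated by -0.213 to 0.744, over 0.1 on 27 of 36 arrays, and the fitted correlation was 0.419. Groups hold 4 biological replicates per the design text, and p-values measure the spread between these. The number of arrays limits the precision. The fit was tested on simulated data.

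Every tested G-run probe is named, with sample values or ranges for the steepest and for those called elsewhere. Probe names are the design's. Sequences on chromosome 2R, and of probes with no chromosome, are not given. The probes, lists and tests were chosen with earlier results of these data known. Alternatives covered background, normalization, detection filter, dye, block, slide, the G rule and each array left out.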

Additional observations from a re-analysis of the deposited data

Results flagged for a closer look

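Sample values that stood apart were looked for in each group of 4 as a gap to the nearest other sample larger than Dixon's 95% limit. Of 360 probe and group combinations 22 (6.11%) were marked, 14 high and 8 low, and chance marks about 1 in 20 groups. Replicate 4 of Zimbabwe-109 females at PF was marked for aae-miR-92a* (9.09, others 4.92 to 5.55), dme-mir-14-5p (8.95, others 5.92 to 6.22), dme-wu-mir-2318-5p (6.77, others 5.33 to 5.55) and dsi-wu-mir-2349-3p (13.24, others 6.02 to 7.17). At the early stage replicate 4 of that set was marked for dps-miR-311* (10.6, others 6.75 to 7.26) and dme-mir-313-5p (12.18, others 10.38 to 10.54). Other high samples were dme-mir-14-5p in Oregon-R males early (12.97, others 11.32 to 11.54), dsi-wu-mir-2548-3p in Samarkand males early (16.31, others 15.02 to 15.19), dsi-wu-mir-2349-3p in Zimbabwe-109 males early (16.83, others 16.1 to 16.23), dps-miR-1000* in D. yakuba early (8.21, others 7.04 to 7.11), and dps-miR-375* in D. simulans females early (7.05, others 6.01 to 6.13). High samples at PF were dme-miR-964 in D. simulans males (6.71, others 6.39 to 6.43), and bmo-miR-3223* (6.11, others 6.01 to 6.02) and dme-mir-313-5p (6.26, others 6 to 6.02) in D. simulans females. Low samples were dme-mir-14-5p in Samarkand males early (11.24, others 14.42 to 14.56), dsi-wu-mir-2548-3p in D. yakuba early (14.4, others 14.95 to 15.04), dme-wu-mir-2318-5p (6.38, others 7.14 to 7.24), bmo-miR-3223* (5.38, others 5.96 to 5.99) and dps-miR-375* (5.78, others 5.98 to 6.01) in Canton-S males at PF, and bmo-miR-3378 in Oregon-R females at PF (5.41, others 5.83 to 5.88), D. simulans males early (5.83, others 5.94 to 5.96) and D. simulans females at PF (5.83, others 5.94 to 5.96).

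The stage change differed between groups by a test of the difference itself for the following probes. Between the sexes of D. melanogaster, male minus female, the differences were 2.99 for dps-miR-2550*, 2.12 for dme-miR-964, 2.01 for aae-miR-92a*, 1.54 for dme-wu-mir-2318-5p, 1.53 for dps-miR-375* and 0.52 for bmo-miR-3378. In D. simulans they were -3.24 for aae-miR-92a*, -2.89 for dme-wu-mir-2318-5p, -2.17 for dsi-wu-mir-2208-3p, -2.03 for dme-mir-313-5p and -1.64 for bmo-miR-2783. That of aae-miR-92a* was lost in both species with slide as a random block. Among the male D. melanogaster strains the changes spanned 5.73 for dme-wu-mir-2318-5p, 5.67 for dsi-wu-mir-2208-3p, 4.9 for dps-miR-1000*, 4.58 for aae-miR-92a*, 4.06 for dsi-wu-mir-2986-5p, 3.88 for bmo-miR-3223*, 3.86 for dme-mir-14-5p, 3.21 for each probe with the shared target (dsi-wu-mir-2349-3p, dsi-wu-mir-2548-3p and dsi-wu-mir-2329-5p), 3.18 for dps-miR-2550*, 3.15 for dme-mir-313-5p, 3.01 for bmo-miR-2783 and 2.11 for dps-miR-311*. Against D. melanogaster males, D. yakuba males differed by 2.04 for dsi-wu-mir-2329-5p, 2.01 for dsi-wu-mir-2349-3p, 1.98 for dsi-wu-mir-2548-3p, 1.32 for dsi-wu-mir-2208-3p and 1.14 for bmo-miR-2783.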

How the results depend on the processing

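Of 289 counts of called probes under other settings (21 comparisons), 240 stayed within 1.5 times the reported count. With runs of 4 or more G alone the falls numbered 11 in D. melanogaster males, 11 in females, 6 and 3 in D. simulans males and females and 6 in D. yakuba, and with 5 or more 2, 2, 1, 1 and 1, by construction from fewer probes. For the other settings the cause was not tested. Plain subtraction gave 7 and 4 falls in D. simulans males and females and 6 in D. yakuba, 2 early and 0 PF sex differences in D. simulans, 1 PF difference for D. yakuba, and interactions of 1 (sex, D. melanogaster), 0 (sex, D. simulans) and 0 (D. yakuba). Without a detection filter there were 26 falls in D. melanogaster females, 8 and 11 sex differences (early, PF), 3 at PF in D. simulans, and interactions of 3 (sex, D. simulans) and 1 (D. yakuba). Slide as random block gave 3 and 2 sex differences in D. melanogaster and 0 at PF in D. simulans. It also gave 1 PF difference and 1 interaction for D. yakuba and 4 PF strain differences. Slide as fixed block, with 2 in place of 4 reference strains, gave 2 early differences for D. simulans and 2 at PF for D. yakuba. Without normalization between arrays, 2 (D. melanogaster) and 0 (D. simulans) PF sex differences and 5 PF strain differences were called, and from the authors' processed values the counts were 1, 0 and 5. Median centring gave 0 PF sex differences and 0 sex interactions in D. simulans, and 3 PF differences and 1 interaction for D. yakuba. Quantile scaling gave 1 and 2 for D. yakuba. Without background correction 3 early D. simulans differences were called. Without the replicate block, that is, ignoring that an array pairs the stages, the counts were 3 for that comparison, 2 for the sex interaction in D. simulans and 1 for the D. yakuba interaction, and no other count moved by over 1.5 times.

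With 1 array left out, falls numbered 15 to 17 in D. melanogaster males, 17 to 18 in females, 10 to 10 and 7 to 8 in D. simulans males and females and 10 to 11 in D. yakuba. Sex differences were 4 to 7 and 5 to 8 in D. melanogaster (early, PF) and 5 to 7 and 0 to 2 in D. simulans. Species differences were 1 to 3 and 1 to 1 for D. simulans and 5 to 6 and 3 to 6 for D. yakuba, and strain differences 11 to 11 and 6 to 8. Interactions were 3 to 9 and 2 to 5 for sex (D. melanogaster, D. simulans), 13 to 14 for strain, 0 to 0 for D. simulans and 1 to 5 for D. yakuba. All 5 arm differences passed in each case (5 to 5), that of dme-mir-14-5p against a partner at background.

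Of 1572 values of single probes under other settings, 1505 kept direction and call, 65 lost the call and 2 reversed, dps-miR-1000* in D. simulans males (0.04 on arrays with the early sample in Cy3) and the arm difference of dme-mir-275-5p (0.07 with the G-run probes left out of the loess). Signals near background limit what can be measured at PF.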
